A study of Homo sapiens with 6 samples.

Results

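The 27 genes described here encode enzymes of cholesterol synthesis, the proteins that control that pathway, and proteins that move or store cholesterol. They are the rows of the deposited gene table that carry 1 of 27 listed symbols. Each symbol matched 1 row, so the members are 27 of the 58735 genes in the table. The group is a list of related functions and not a set found in these data. RNA was sequenced from TPC1 cells, an established line of human papillary thyroid cancer that carries a RET gene fusion. In 3 libraries the cells had been transfected with si-circ_0000839, an siRNA against the circular RNA hsa_circ_0000839, and in 3 others with NC siRNAs, the negative control. Cells of all 6 libraries were kept in DMEM with 10% FPS, as the labels spell it, and were harvested 60 h after transfection. All cells are thus of 1 line, and all received an siRNA. The question put by the design is which mRNAs differ when the circular RNA is silenced. The circular RNA was not matched to any row, so the depletion of the target was not checked here.

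Cells make cholesterol from acetyl-CoA by way of mevalonate, isoprenoid diphosphates, squalene and lanosterol. The transcription factor SREBP-2 switches on most genes of the pathway when sterols in the endoplasmic reticulum run low. Its escort SCAP carries it to the Golgi for cleavage, and the INSIG proteins hold both back when sterols are plentiful. Cholesterol taken up with lipoproteins leaves lysosomes through NPC2 and NPC1, is esterified by SOAT1 for storage, and is exported by ABCA1.

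Levels are given in FPKM, fragments scaled by the length of the gene and by a scaling total for each library, so that genes can be compared with each other. The libraries held 18399558 to 19334633 reads recovered from the FPKM steps. Of the 27 genes, 25 reached 1 FPKM on average and entered the test, and CYP51A1 and ABCA1 did not. The thyroid lineage factor PAX8 was at 96.3 ± 5.26 FPKM after si-circ_0000839 and 95.8 ± 2.21 FPKM in NC (SD, n = 3 each), while TSHR, SLC5A5 and NKX2-1 were listed at 0 in all libraries. The leukocyte genes PTPRC and CD3E were listed at 0 throughout, and CD14, a monocyte marker, was at 0.160 ± 0.0148 FPKM after si-circ_0000839 and 0.302 ± 0.125 FPKM in NC (SD, n = 3 each). Summed over 4 markers, fibroblast genes reached 0.673 to 0.886 FPKM after si-circ_0000839 and 0.441 to 0.564 FPKM in NC. Of these, COL1A1 averaged 0.565 FPKM after si-circ_0000839 and 0.370 FPKM in NC, and PDGFRB 0.197 and 0.136 FPKM. In the same order, COL1A2 averaged 0 and 0.00154 FPKM, and DCN 0.00282 and 0.00279 FPKM. None of these markers reached the level needed for the test. The part of these cell types in the results was not tested. Endothelial and hepatocyte sums reached at most 0.153 FPKM in each library. The libraries si-circ_0000839 replicate 1 and NC replicate 2 stood apart from the other 4. Genes with at least 58.8% GC deviated on average from their own 6-library means by 0.107 in si-circ_0000839 replicate 1 and by 0.0835 in NC replicate 2 (log2 scale), and genes with at most 42.7% GC by -0.147 and -0.052.

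No cholesterol gene passed the test after si-circ_0000839. At a Benjamini-Hochberg adjusted p under 0.05 in limma, 0 of 25 were called, against 0.384% of all 10674 tested genes. At an unadjusted p under 0.05, 4 of the 25 were lower (INSIG1, IDI1, EBP and FDFT1), where 6.31% of all tested genes were lower. By the same measure 0 were higher, where 6.31% of all tested genes were higher. With voom on the recovered reads 0 were called and 6 had an unadjusted p under 0.05, all of them lower, where 7.45% of all tested genes were lower by that measure. The si-circ_0000839 libraries lay below every NC library for 7 genes, FDPS, EBP, FDFT1, INSIG1, MSMO1, IDI1 and SC5D, against a background of 7.55%. They lay above every NC library for NPC1 alone, against a background of 10.6%. There were 15 of 25 log2 changes below 0, against 48.2% of all tested genes. The median change was -0.01 on the log2 scale for the 25 genes and 0.01 for all tested genes, and after rescaling to TPM it turned to 0.01 for the 25 genes and 0.03 for all. In bulk RNA, fewer cells that express a gene and less of its RNA per cell cannot be told apart. The members were chosen with earlier results of these data known, so these shares are descriptions.

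The fits limit how large a change between these libraries could have gone unseen. Whether replicates were separate cultures is not stated, so the limit covers the spread between these libraries only. Each of the 25 intervals at 95% lay within 1.5-fold in either direction, which is 0.58 on the scale of log2(FPKM + 1). The lowest bound was -0.48, for INSIG1, and the highest 0.33, for SCAP. That scale understates changes of genes with low values. With a pseudocount of 0.1, 23 of 25 intervals lay within 1.5-fold, and the lowest bound was -0.61. With voom 24 of 25 did, and the lowest bound was -0.62. Under both, all 25 lay within 2-fold.

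**Figure D1:**
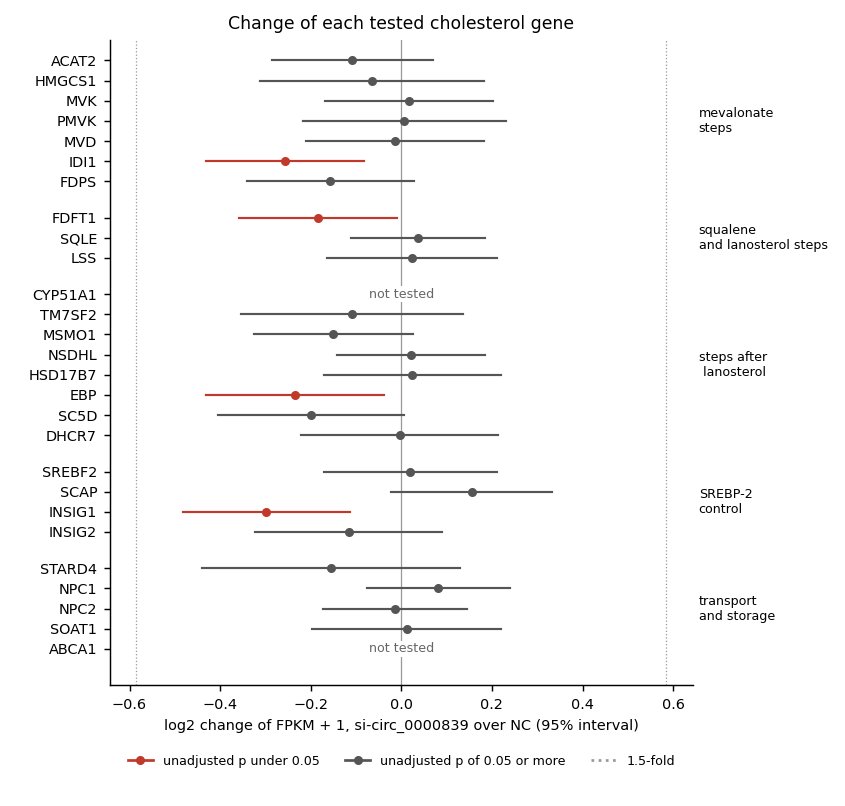
Log2 change of FPKM + 1, si-circ_0000839 over NC, for the 25 tested genes in order of their roles, with 95% intervals from limma; dotted lines mark 1.5-fold. The 4 genes with an unadjusted p under 0.05 (INSIG1, IDI1, EBP and FDFT1) lie left of 0, and no interval reaches the dotted lines.

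The controllers of the pathway come first, since 1 of them had the smallest p of the group. INSIG1 encodes an endoplasmic reticulum protein that retains SCAP, and its gene is itself an SREBP target. It was at 14.6, 12.9 and 12.1 FPKM after si-circ_0000839, against 17.6, 15.5 and 16.2 FPKM in NC. The groups did not overlap, and each si-circ_0000839 value lay below the lowest NC value, that of replicate 2. The ratio of the means was 0.803 (log2 change -0.30, SE 0.08, limma adjusted p = 0.194). Over the alternative settings its adjusted p was highest without si-circ_0000839 replicate 3, at 0.517 in limma (log2 change -0.24). It was lowest without both libraries that stood apart, at 0.0699 (log2 change -0.40). Leaving them out was a choice made from these data, and it left 2 libraries per group, here and below. INSIG2, its paralog, was at 2.66, 3.46 and 3.11 FPKM after si-circ_0000839, against 3.38, 3.18 and 3.68 FPKM in NC, and its groups overlapped. INSIG2 was thus at a lower level than INSIG1 in each of the 6 libraries.

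SCAP, the sterol-sensing escort of SREBP-2, had the largest positive log2 change of the 25 genes. It stood at 21.6, 18.7 and 20.2 FPKM after si-circ_0000839, against 17.6, 19.5 and 16.9 FPKM in NC. The groups overlapped, because NC replicate 2 lay above si-circ_0000839 replicate 2 (log2 change 0.16, SE 0.08, limma adjusted p = 0.461). Without both libraries that stood apart its log2 change was 0.16 (adjusted p = 0.233). SREBF2, which encodes SREBP-2, averaged 22.5 ± 2.29 FPKM after si-circ_0000839 and 22.2 ± 1.56 FPKM in NC (SD, n = 3 each). Its log2 change was 0.02, with a 95% interval of -0.17 to 0.21. The controllers of the pathway thus had 2 changes below 0 and 2 above it, none of them called.

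Promoter sequence was read to show what the controllers and their target enzymes share at their starts. RefSeq windows of 250 bases before the start (GRCh38.p14) were found for 24 of the 27 genes, with 31 windows in all, since some genes have several starts. The sterol regulatory element, to which SREBP binds, was searched as TCACNCCAC on both strands. It occurred in 0.883% of all 35116 windows and in 1 of the 31 windows of the group, that of SREBF2. The NF-Y box ATTGG, searched on both strands, lies beside sterol elements in many lipid genes. It occurred in 64.5% of the windows of the group and in 32.0% of all windows. The E-box CACGTG occurred in 16.1% of the windows of the group and in 6.34% of all windows. None of these 3 motifs overlapped another of a different kind in the windows printed here. Matches are descriptions of these letters in these windows, and other forms of the sterol element were not searched.

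The SREBF2 window is shown because it holds the sterol element, and the INSIG1 window because INSIG1 had the smallest p, a choice made after its values were seen. Each is written 5′ to 3′ on the plus strand, with matches to the 3 motifs in capitals. The SREBF2 window spans chr22:41832855-41833104, with the sterol element beginning at position -133 and an NF-Y box at -106 relative to the start. The INSIG1 window spans chr7:155297628-155297877, with an NF-Y box at -170 and an E-box at -55 relative to the RefSeq start. The deposited coordinates start INSIG1 at 155297776, so the E-box, which begins at 155297823, lies after that deposited start. The bases just after the RefSeq start were not found in a GENCODE 29 transcript of INSIG1, while those of SREBF2 were found in one of its own.
SREBF2: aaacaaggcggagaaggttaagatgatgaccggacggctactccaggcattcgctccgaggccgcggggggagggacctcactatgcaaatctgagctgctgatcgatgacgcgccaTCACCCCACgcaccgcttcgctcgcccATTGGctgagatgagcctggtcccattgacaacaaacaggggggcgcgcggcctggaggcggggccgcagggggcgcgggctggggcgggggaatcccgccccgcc
INSIG1: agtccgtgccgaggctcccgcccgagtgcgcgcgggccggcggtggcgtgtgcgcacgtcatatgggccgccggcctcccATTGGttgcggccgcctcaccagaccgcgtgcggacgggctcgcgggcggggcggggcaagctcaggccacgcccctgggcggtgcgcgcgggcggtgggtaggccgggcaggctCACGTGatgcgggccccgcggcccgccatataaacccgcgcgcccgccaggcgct

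The mevalonate arm runs from ACAT2, the cytosolic thiolase that joins acetyl-CoA units, to FDPS, the synthase of farnesyl diphosphate. All 7 of its genes were tested, 0 were called, and 5 had a log2 change below 0. IDI1, the isomerase that makes the reactive isoprenoid unit, had the second smallest p of the group. It was at 4.72, 4.69 and 5.15 FPKM after si-circ_0000839, against 5.90, 5.60 and 6.503 FPKM in NC. The groups did not overlap (ratio of means 0.809, log2 change -0.26, SE 0.08, limma adjusted p = 0.228). Without both libraries that stood apart the log2 change was -0.28 (adjusted p = 0.157).

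FDPS was at 21.9, 22.2 and 22.9 FPKM after si-circ_0000839, against 23.1, 28.4 and 23.9 FPKM in NC. The groups did not overlap, but the gap between them was small and NC replicate 2 lay far above the other NC libraries. The log2 change was -0.16 (limma adjusted p = 0.472), and -0.06 without both libraries that stood apart. HMGCS1, the synthase that commits acetoacetyl-CoA to this arm, was at 3.65, 4.95 and 5.004 FPKM after si-circ_0000839, against 5.06, 4.16 and 5.07 FPKM in NC. Its lowest values were in si-circ_0000839 replicate 1 and NC replicate 2, and the groups overlapped. ACAT2 averaged 12.2 ± 0.314 FPKM after si-circ_0000839 and 13.3 ± 1.33 FPKM in NC (SD, n = 3 each). TCP1, a chaperonin gene on the other strand at 60.8 FPKM after si-circ_0000839 and 56.1 FPKM in NC, shares 9.23% of the exonic bases of ACAT2. Also on the other strand, SOD2-OT1 and an entry of SOD2 that is listed at 0, as SOD2-OT1 is, share 33.9% and 26.5%. Antisense genes share 14.8% of the exonic bases of IDI1, 18.6% of those of FDPS and 14.95% of those of HMGCS1. Reads in shared bases cannot be assigned with certainty.

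The kinases MVK and PMVK and the decarboxylase MVD, which turn mevalonate into isopentenyl diphosphate, had log2 changes of 0.02, 0.01 and -0.01. PMVK was the most abundant gene of the group, at 47.0 ± 1.54 FPKM after si-circ_0000839 and 47.1 ± 7.68 FPKM in NC (SD, n = 3 each). Without both libraries that stood apart its log2 change was 0.11 (limma adjusted p = 0.277). MMAB, which acts in cobalamin metabolism and is known to share a promoter region with MVK on the other strand, was looked up after the overlap of the 2 genes was seen. It was at 3.89, 3.70 and 3.87 FPKM after si-circ_0000839, against 4.99, 5.47 and 4.68 FPKM in NC. The groups of MMAB did not overlap (log2 change -0.32, SE 0.08, limma adjusted p = 0.117), while those of MVK, at 4.85, 4.01 and 4.49 FPKM after si-circ_0000839 against 4.26, 4.69 and 4.20 FPKM in NC, did. The shared bases are 4.72% of the exonic bases of MVK.

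**Figure D2:**
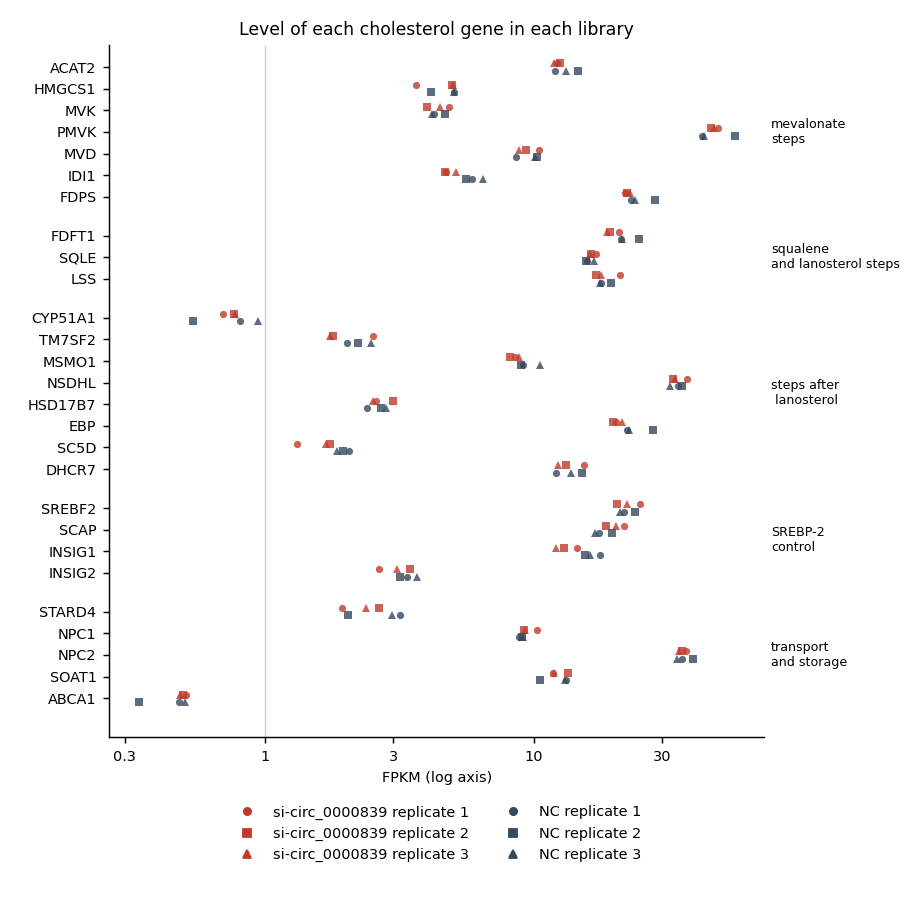
FPKM of all 27 genes in each library on a log axis, with si-circ_0000839 in red above NC in dark blue and 1 symbol per replicate number; the vertical line marks 1 FPKM. PMVK, NPC2 and NSDHL are the highest genes, CYP51A1 and ABCA1 lie below 1 FPKM, and NC replicate 2 (dark squares) lies away from the other NC libraries for genes such as PMVK, FDPS and EBP.

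The next enzymes join farnesyl units to squalene and close the sterol rings. FDFT1, the squalene synthase, was at 20.7, 19.2 and 18.8 FPKM after si-circ_0000839, against 21.2, 24.7 and 21.3 FPKM in NC. The groups did not overlap, with the highest si-circ_0000839 library just below the lowest NC library. Its log2 change was -0.18 (SE 0.08, limma adjusted p = 0.373), and -0.15 without both libraries that stood apart (adjusted p = 0.192). SQLE, the epoxidase that follows and a rate-limiting step, averaged 16.5 ± 0.493 FPKM after si-circ_0000839 and 16.1 ± 0.627 FPKM in NC (SD, n = 3 each). Its SE of 0.07 was the smallest of the 25 genes, with a 95% interval of the log2 change from -0.11 to 0.19. LSS, the cyclase that forms lanosterol, averaged 18.6 ± 2.05 FPKM after si-circ_0000839 and 18.3 ± 0.933 FPKM in NC. The ratio of si-circ_0000839 to NC means was 0.874 for FDFT1, 1.03 for SQLE and 1.02 for LSS, and none of the 3 was called.

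Of the 8 genes that act after lanosterol, 7 were tested, 0 were called and 5 had a log2 change below 0. EBP, the sterol isomerase that moves the ring double bond, had the smallest p among them. It was at 20.2, 19.7 and 21.3 FPKM after si-circ_0000839, against 22.3, 27.8 and 22.7 FPKM in NC. The groups did not overlap (ratio of means 0.840, log2 change -0.24, SE 0.09, limma adjusted p = 0.311). NC replicate 2 was the highest library, and without both libraries that stood apart the log2 change was -0.13 (adjusted p = 0.296).

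SC5D, the desaturase that follows EBP, was at 1.31, 1.74 and 1.68 FPKM after si-circ_0000839, against 2.06, 1.95 and 1.86 FPKM in NC. The groups did not overlap, and the lowest library was si-circ_0000839 replicate 1 (log2 change -0.20, SE 0.09, limma adjusted p = 0.412). The gene rested on 134 to 222 reads per library. The ratio of its means was 0.808, and its log2 change was -0.30 with a pseudocount of 0.1 (adjusted p = 0.419) and -0.33 with voom (adjusted p = 0.309). MSMO1, the oxidase of the methyl groups, was at 8.49, 8.16 and 8.85 FPKM after si-circ_0000839, against 9.11, 8.98 and 10.6 FPKM in NC. Its groups did not overlap either (log2 change -0.15, SE 0.08, limma adjusted p = 0.474). With the trend on GC content and length removed, the log2 change was -0.12 for SC5D and -0.05 for MSMO1.

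The other tested enzymes of this stretch had overlapping groups. NSDHL, a dehydrogenase that acts on the methyl groups, averaged 34.6 ± 2.29 FPKM after si-circ_0000839 and 34.0 ± 1.67 FPKM in NC (SD, n = 3 each). DHCR7, a reductase of the last steps, averaged 13.6 ± 1.56 FPKM after si-circ_0000839 and 13.7 ± 1.502 FPKM in NC. HSD17B7, the ketoreductase, was at 2.70 ± 0.262 FPKM after si-circ_0000839 and 2.64 ± 0.220 FPKM in NC. The related pseudogene HSD17B7P2, at 0.352 FPKM after si-circ_0000839 and 0.569 FPKM in NC, could share its reads. TM7SF2, a sterol reductase, was at 2.51, 1.79 and 1.74 FPKM after si-circ_0000839, against 2.01, 2.21 and 2.48 FPKM in NC. Its highest value was in si-circ_0000839 replicate 1. The log2 change was -0.11 (SE 0.11, limma adjusted p = 0.736), -0.22 without that library (adjusted p = 0.455) and -0.23 without both libraries that stood apart (adjusted p = 0.293).

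CYP51A1, the lanosterol demethylase, was listed at 0.700, 0.766 and 0.773 FPKM after si-circ_0000839, against 0.805, 0.537 and 0.938 FPKM in NC, on 35 to 64 reads per library. The groups overlapped and the gene was not tested. This is far below its neighbours in the pathway, LSS and MSMO1. AC000120.2, a coding gene model on the same strand that is listed at 0 in all libraries, shares 79.4% of the exonic bases of CYP51A1. The sources used here do not say whether reads in such shared bases were counted, so the listed level of CYP51A1 cannot be read as its true level.

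Among genes of transport and storage, 4 of 5 were tested and 0 were called. NPC1, the membrane protein that exports cholesterol from lysosomes, was at 10.3, 9.17 and 9.29 FPKM after si-circ_0000839, against 8.78, 9.07 and 9.11 FPKM in NC. These groups did not overlap, with si-circ_0000839 higher (log2 change 0.08, SE 0.07, limma adjusted p = 0.691). RMC1 on the other strand, at 11.2 FPKM after si-circ_0000839 and 10.999 FPKM in NC, shares 5.98% of its exonic bases. NPC2, the soluble partner that hands cholesterol to NPC1, was the second most abundant gene of the group, at 35.9 ± 1.04 FPKM after si-circ_0000839 and 36.3 ± 2.53 FPKM in NC (SD, n = 3 each).

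STARD4, a cytosolic sterol carrier, was at 1.93, 2.67 and 2.38 FPKM after si-circ_0000839, against 3.17, 2.03 and 2.96 FPKM in NC. Its lowest values were in the libraries that stood apart, and the groups overlapped (log2 change -0.15, SE 0.13, limma adjusted p = 0.670). Without those libraries the log2 change was -0.21 (adjusted p = 0.264). SOAT1, which esterifies cholesterol, averaged 12.4 ± 0.899 FPKM after si-circ_0000839 and 12.3 ± 1.53 FPKM in NC. ABCA1, the cholesterol exporter, was at 0.509, 0.493 and 0.484 FPKM after si-circ_0000839, against 0.477, 0.339 and 0.504 FPKM in NC. It was not tested because of its low level, and the groups overlapped.

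Across the libraries the genes of the group varied with their GC content, as tested genes at large did. Over all tested genes, those with at least 58.8% GC deviated on average by 0.107 in si-circ_0000839 replicate 1 and 0.0835 in NC replicate 2 (log2 scale). Those with at most 42.7% GC deviated by -0.147 and -0.052. Of the 9 genes with the highest GC content (54.9% to 64.1%), 8 lay above their 6-library mean in si-circ_0000839 replicate 1 and 9 in NC replicate 2. The corresponding numbers were 0 and 2 in si-circ_0000839 replicates 2 and 3, and 1 and 4 in NC replicates 1 and 3. Of the 9 genes with the lowest GC content (37.3% to 42.4%), 8 lay below their mean in si-circ_0000839 replicate 1 and 7 in NC replicate 2. In si-circ_0000839 replicates 2 and 3 the numbers below were 3 and 7, and in NC replicates 1 and 3 they were 1 and 0. The same counts over all tested genes are not given here. For 11 of the 25 tested genes, both libraries that stood apart lay on 1 side of the other 4, and the part of these libraries in the results was not tested beyond the values without them. Above lay 8 genes (PMVK, NPC2, NSDHL, SREBF2, LSS, DHCR7, MVD and MVK), where 18.9% of all tested genes did, and below lay 3 (SOAT1, HMGCS1 and STARD4), where 15.9% of all tested genes did. With a trend on GC content and length removed from each library, 5 of the 25 genes were lower at an unadjusted p under 0.05, where 9.42% of all tested genes were. These were INSIG1, EBP, FDFT1, IDI1 and FDPS. By the same measure SCAP was higher (log2 change 0.10, adjusted p = 0.221), where 10.4% of all tested genes were. INSIG1 and EBP then had log2 changes of -0.31 and -0.23 and the lowest adjusted p of the group, 0.0824 and 0.0896.

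**Figure D3:**
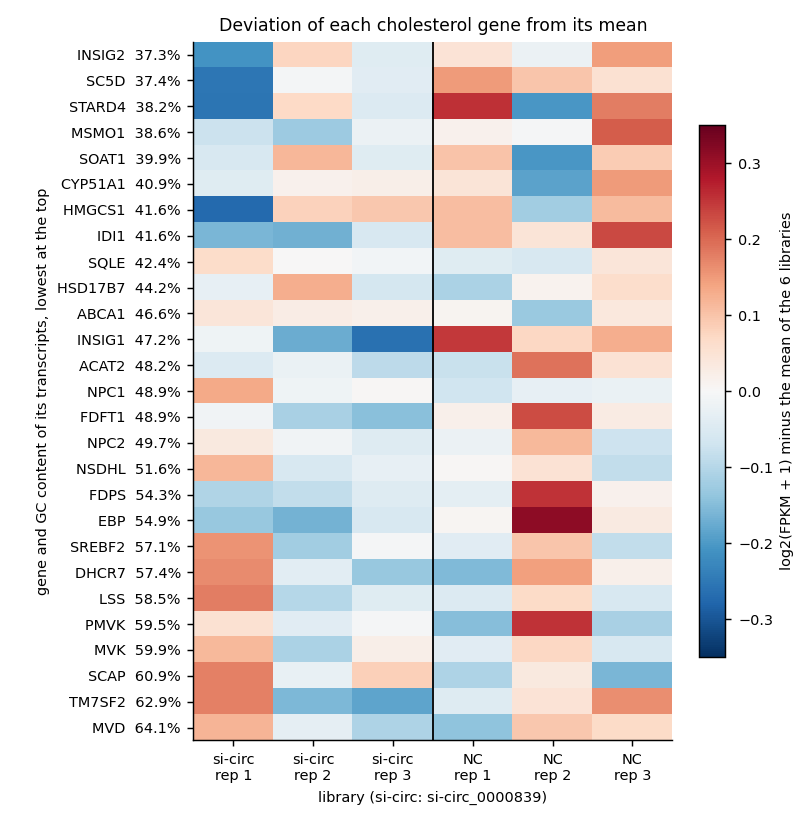
Deviation of log2(FPKM + 1) from the 6-library mean for the 27 genes, ordered by GC content from lowest at the top, with the si-circ_0000839 libraries left of NC. The si-circ_0000839 replicate 1 column is mostly blue at the top and red at the bottom. INSIG1, IDI1, EBP, FDFT1 and SC5D lie below their mean in each si-circ_0000839 library and above it in each NC library. Some of these deviations are small, as for INSIG1 in si-circ_0000839 replicate 1.

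Other genes of sterol metabolism were read from 6 lists with 71 tested genes, chosen by function. With limma on log2(FPKM + 1) 0 were called, while 7 were higher and 2 lower at an unadjusted p under 0.05, beside 6.31% of all tested genes in each direction. Of 21 tested genes of SREBP processing and sterol-regulated degradation, 7 had a log2 change below 0. The smallest p was that of SEC23B, a coat protein of the vesicles that leave the endoplasmic reticulum, at 26.6 ± 0.405 FPKM after si-circ_0000839 and 22.6 ± 0.549 FPKM in NC (SD, n = 3 each; limma adjusted p = 0.194). Of 10 tested genes of lipoprotein receptor uptake, 0 had a log2 change below 0, beside 48.2% of all tested genes, and 3 were higher at an unadjusted p under 0.05, beside 6.31%. Their median was 0.07, beside 0.01 for all tested genes. HSPG2, the proteoglycan perlecan, was at 22.6, 19.3 and 24.8 FPKM after si-circ_0000839, against 16.4, 16.03 and 16.2 FPKM in NC. These groups did not overlap (log2 change 0.43, SE 0.09, limma adjusted p = 0.0859). With voom, HSPG2 alone of the 71 genes was called (adjusted p = 0.0104), among 123 called of all 10674 genes.

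Of 17 tested genes of intracellular sterol transport, 10 had a log2 change below 0. LIPA, the lysosomal lipase that frees cholesterol from its esters, was at 11.2, 11.4 and 10.9 FPKM after si-circ_0000839, against 13.01, 13.99 and 14.04 FPKM in NC. The groups of LIPA did not overlap (log2 change -0.27, SE 0.07, limma adjusted p = 0.142). Of 7 tested genes of LXR and efflux, 2 were below 0, and MYLIP, a ligase that targets lipoprotein receptors, averaged 3.29 ± 0.164 FPKM after si-circ_0000839 and 2.58 ± 0.311 FPKM in NC (SD, n = 3 each; limma adjusted p = 0.259). Of 13 tested genes of the isoprenoid branch, 7 were below 0, and RCE1, a protease of prenylated proteins, was at 12.3 FPKM after si-circ_0000839 and 10.5 FPKM in NC (limma adjusted p = 0.242). Of 3 tested genes of esterification and oxysterols, 2 were below 0, and LCAT, which had the smallest p, was at 2.52 FPKM after si-circ_0000839 and 2.30 FPKM in NC (limma adjusted p = 0.770).

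**Figure D4:**
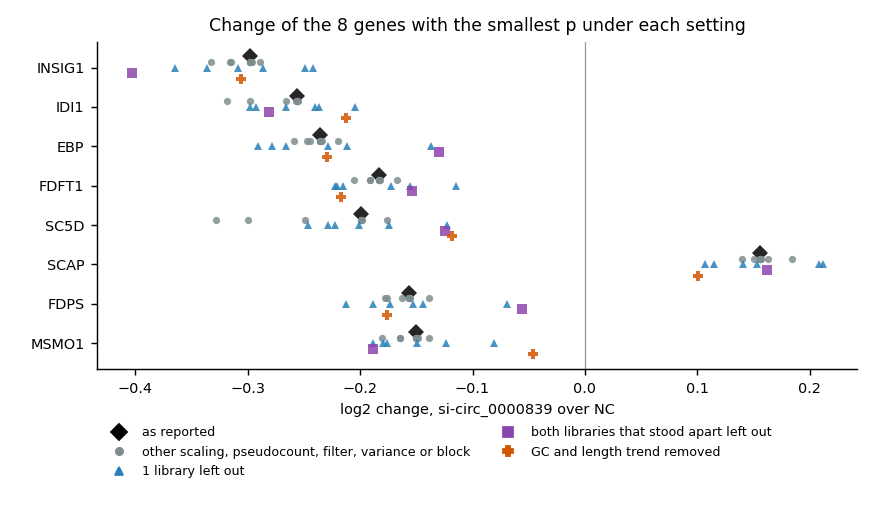
Log2 change, si-circ_0000839 over NC, of the 8 genes with the smallest p as reported and under each of the alternative settings, drawn as 1 symbol per setting. INSIG1 spans -0.40 to -0.24 and IDI1 -0.32 to -0.20, and no gene shown crosses 0. The 8 genes were chosen by p in these same libraries, so that their signs hold is not independent evidence.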

How the data were processed

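The authors deposited 1 table of FPKM for 6 libraries, with gene lengths and coordinates, per the file headers. The submitters' processing notes list HISAT2 2.0.5 and featureCounts 1.5.0-p3. The sources used here do not give the build, the scaling total or how strand and shared bases were counted. All 58735 gene IDs matched GENCODE 29 (GRCh38) in position. Multiplied by length, 100% of FPKM above 0 were whole multiples (within 0.01) of 1 step per library, which gave reads per gene. The scaling total implied by that step was not the total of recovered reads. Their ratio was 0.971 in si-circ_0000839 replicate 1, 0.958 in NC replicate 2 and 1.0002 to 1.0235 in the others. How that scaling was made was not tested.

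Groups were compared on log2(FPKM + 1) in limma 3.58.1 (R 4.3.3, trended prior, two-sided, group as the only term), using every gene that averaged 1 FPKM or more, with Benjamini-Hochberg adjustment over 10674 genes. The script was tested on simulated data, with an outcome not given here. The simulated libraries had no differences by GC content, so that test does not cover those seen in these libraries. Ratios are of mean FPKM. The labels do not say whether replicates were separate cultures, so p-values measure the spread between these libraries, which may be technical. Within groups, libraries differed beyond sampling noise (chi-square per degree of freedom 3.14 to 10.8). The genes and lists were chosen with earlier results of these data known. Values in every library are given for the 8 genes with the smallest p and for others where libraries differed. Other lists are described by counts and by the gene with the smallest p. GC content is that of all GENCODE transcripts of a gene together. Alternatives changed pseudocount, filter, scaling, prior variance, block, tool (voom on recovered reads) and libraries, or removed from each library splines (5 degrees of freedom) of GC content and length. Promoters came from RefSeq.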

Additional observations from a re-analysis of the deposited data

How the results depend on the processing

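Under 17 alternative settings 0 of 418 values of single cholesterol genes were called. The lowest adjusted p was 0.0699, for INSIG1 without si-circ_0000839 replicate 1 and NC replicate 2 together, which left 2 libraries per group. For 13 of the 25 tested genes the log2 change kept its sign under every setting in which the gene was tested, among them INSIG1, IDI1, EBP, FDFT1, SC5D, FDPS, MSMO1 and SCAP. For the other 12, such as DHCR7, SOAT1 and PMVK, it changed sign at least once. INSIG1 and IDI1 had an unadjusted p under 0.05 under all 17 settings, EBP under 13 and FDFT1 under 12, each lower, and SCAP, higher, under 5. All settings refit these same libraries, so these counts are not independent evidence. The matching shares of all tested genes are not given here. The median log2 change of the tested genes was 0.01 after rescaling to TPM, where that of all tested genes was 0.03, and ranged from -0.066 to 0.0040 with 1 library left out. Over all tested genes 41 were called, against 4 with no filter on low values, 68 with a minimum of 5 FPKM, 63 after quantile normalization, 123 with voom, 26 without both libraries that stood apart and 256 with the GC and length trend removed; with 1 library left out the count ran from 20 to 38. The cause of these differences was not tested.

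With the replicate number as a block 35 genes and 0 cholesterol genes were called. Same-numbered libraries correlated at -0.149, -0.289 and 0.150 in their deviations from the group means, so the numbers were not taken as pairs. TM7SF2, SC5D, INSIG2, STARD4 and HSD17B7 rest on 109 to 350 reads per library, and ABCA1 and CYP51A1 on 35 to 110, which limits their precision.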
